A study of Mus musculus with 28 samples.

Results

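Histone variants replace or join the standard histones of chromatin, and male germ cells use more of them than most tissues. The standard, replication-dependent histones are made mainly while DNA is copied, and most of their mRNAs end in a stem-loop without a poly(A) tail. Variant genes can be read outside that window. In the male germ line, testis-specific linker and core histones enter chromatin around meiosis, and in elongating spermatids most histones are removed and replaced, first by transition proteins and then by protamines.

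The transcripts of 9 histone variant genes were examined in testis and sorted germ cells of mice. They were chosen by name, with earlier results of these data known, from 37206 genes with at least 1 transcript row in the deposited table. Hist1h1t (H1t) is the linker histone of meiotic cells. Hist1h2ba (TH2B) and Hist1h2aa (TH2A) are the testis forms of H2B and H2A. Hils1 and H1fnt (also called H1T2) are linker histones of spermatids. H3f3a and H3f3b both encode histone H3.3, H2afx encodes H2A.X, which is phosphorylated at DNA breaks and over the sex chromosomes in meiosis, and H2afz encodes H2A.Z.

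Libraries of polyadenylated RNA came from wildtype (WT) mice and from littermates with a constitutive knockout (KO) of Csmd1, which encodes a large membrane protein with complement-interacting domains. In KO mice a lacZ/neomycin cassette takes the place of the first Csmd1 exon and some of the intron after it. The labels give the strain as C57BL/6, and the methods describe a colony of mixed 129SvEvBrd and C57BL/6 descent, so littermates can differ at other loci. By the methods, 1 testis of a male was taken whole, and the other was stained with Hoechst and sorted into 4 gates by DNA content and chromatin state. These were labelled as spermatogonia, spermatids, and the primary and the secondary spermatocytes. There were 20 sorted libraries (9 from 3 WT mice, 11 from 5 KO mice), 7 whole testes (2 WT, 5 KO) and 1 WT ovary. Libraries are named here by group and mouse number. The 8 sorted groups held 2 WT and 2 KO libraries of spermatogonia, 2 and 4 of primary spermatocytes, 2 and 3 of secondary spermatocytes, and 3 and 2 of spermatids. By the methods, males whose testes were dissociated and sorted were sexually mature, at about 40 days of age. An age listed for the single mouse, 40 days, was found only for WT mice 178 and 351. The study also used whole testes of immature males, and the ages of KO mice 214, 269, 273 and 308, which appear here as whole testis only, and of the ovary donor are not given in the sources used here.

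The values are RPKM (reads per kilobase of transcript scaled to mapped reads), summed over the transcripts of a gene. Low values stepped in whole reads in 27 libraries, which placed their depth at 23786000 to 61632000 reads. In the KO primary spermatocytes of mouse 613 only 14.1% of low values lay on whole reads. That library appears to have been counted in another way and its depth is unknown. The sort checked out in part. The summed RPKM of 6 spermatogonial markers was 92.0 to 742 in spermatogonia and 4.17 to 89.1 in the other sorted libraries. Summed markers of primary spermatocytes (6 genes) overlapped across gates, at 651 to 1682 RPKM in spermatogonia and 828 to 3125 in primary spermatocytes. They were 548 to 1973 in secondary spermatocytes and 363 to 1819 in spermatids. In WT mouse 178 they were 1682 in spermatogonia and 1128 in primary spermatocytes. Transition protein and protamine transcripts (5 genes summed) reached 7507 to 7867 RPKM in 3 spermatid libraries, but were 44.9 in the WT spermatids of mouse 648 and 74.9 in the KO spermatids of mouse 286. They stood at 10946 RPKM in the KO spermatogonia of mouse 544, against 1.43 to 469 in the other 3 spermatogonia libraries. Summed markers of peritubular and stromal cells were 28.7 to 804 RPKM in spermatogonia, 2.16 to 46.0 in primary spermatocytes, 10.1 to 125 in secondary spermatocytes and 2.62 to 26.8 in spermatids. Csmd1 itself ranged from 0.033 to 1.66 RPKM in sorted WT libraries and from 0.049 to 6.33 in sorted KO libraries, and a sum over all exons of a gene that lost its first exon does not check the labels.

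The upstream windows of 4 loci are shown first, so that those of Hist1h2aa and Hist1h1t, with the lowest mean level in spermatids, can be set beside those of Hils1 and H1fnt, with the highest there. Sequences are from RefSeq on the GRCm38.p6 build, 250 bases up to the base before the start of transcription, on the strand of the gene, and 8 of the 9 genes had such a window (all but H2afx). Capitals mark 4 motifs, searched on both strands of 32851 promoter windows. The box at which the basal machinery binds, spelled TATAA, was in 22.8% of windows. The motif CCAAT, bound by factor NF-Y, was in 33.8%. The core of a cAMP response element, spelled TGACG, was in 17.8%, and the octamer of histone promoters, spelled ATTTGCAT, was in 1.6%. A match describes the letters only.
Hist1h2aa, chr13:23934187-23934436, plus strand: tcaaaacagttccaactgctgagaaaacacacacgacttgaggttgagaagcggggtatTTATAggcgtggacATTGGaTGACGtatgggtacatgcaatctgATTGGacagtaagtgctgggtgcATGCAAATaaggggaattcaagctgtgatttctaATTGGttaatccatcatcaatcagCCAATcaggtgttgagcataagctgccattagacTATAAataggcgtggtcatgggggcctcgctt
Hist1h1t, chr13:23695561-23695810, plus strand: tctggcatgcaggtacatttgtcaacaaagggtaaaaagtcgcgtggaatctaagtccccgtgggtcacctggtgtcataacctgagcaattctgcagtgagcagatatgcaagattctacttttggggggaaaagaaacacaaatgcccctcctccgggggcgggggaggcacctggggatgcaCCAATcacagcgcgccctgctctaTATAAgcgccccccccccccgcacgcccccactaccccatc
Hils1, chr11:94967343-94967592, plus strand: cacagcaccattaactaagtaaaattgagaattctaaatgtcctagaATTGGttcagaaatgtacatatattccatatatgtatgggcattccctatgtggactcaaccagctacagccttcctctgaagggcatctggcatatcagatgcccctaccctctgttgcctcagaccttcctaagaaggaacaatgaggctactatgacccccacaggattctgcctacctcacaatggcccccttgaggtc
H1fnt, chr15:98257308-98257557, minus strand: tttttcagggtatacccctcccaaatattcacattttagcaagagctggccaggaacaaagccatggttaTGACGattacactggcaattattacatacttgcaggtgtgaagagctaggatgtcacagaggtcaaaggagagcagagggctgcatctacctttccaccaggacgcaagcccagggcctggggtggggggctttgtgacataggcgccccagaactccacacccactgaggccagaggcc

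Hist1h2aa (chr13:23934462-23934851, plus strand) and Hist1h2ba (chr13:23933773-23934156, minus strand) are single-exon genes that point away from each other, with 305 bases between them, so the Hist1h2aa window is nearly the whole of their shared upstream region. It held 4 CCAAT boxes in either orientation, and 0.84% of all windows held as many. It also held 2 TATA-like boxes, 1 facing each gene, 1 octamer and 1 TGACG. Hist1h2aa also overlaps a predicted miRNA on the opposite strand, Gm44344, so its reads may not be fully separable. Hist1h1t (chr13:23695814-23696725, single exon) lies in the same histone cluster and had 1 CCAAT box and 1 TATA-like box. The spermatid linker genes had fewer matches, 1 CCAAT box for Hils1 and 1 TGACG for H1fnt. The H3f3b window, not printed, held 4 CCAAT boxes, 1 TATA-like box, 2 TGACG and 1 octamer. That gene had its lowest mean level in secondary spermatocytes. The window of H2afz held 2 CCAAT boxes and that of H3f3a held 1. Whether matches go with the stage of a transcript was not tested. Hils1 (chr11:94967593-94968456, plus strand) is inside Sgca, a muscle sarcoglycan gene on the opposite strand. Whether counting used strand is not given in the sources used here, so reads of the 2 genes may not be separable. H1fnt (chr15:98255986-98257293, minus strand) overlapped no other annotated gene.

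The other 4 genes are spread over the genome (GRCm38). H2afx (chr9:44334694-44336077, plus strand) is a single-exon gene that overlaps a predicted miRNA, and H2afz (chr3:137864487-137866922, plus strand) overlapped no other annotated gene. H3f3a (chr1:180800832-180813943, minus strand) overlaps an antisense transcript, H3f3aos, and a long noncoding RNA, so its reads may not be fully separable. H3f3b (chr11:116021912-116027962, minus strand) overlapped none. Their upstream windows are not printed.

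The design allows 2 questions, how each transcript differs from stage to stage and whether it differs between KO and WT. Stage steps were tested with limma on log2(RPKM + 0.1) over the 20 sorted libraries, as the mean of the WT and KO differences, with p-values adjusted over the 19049 genes tested. All 9 genes passed the filter of a mean of at least 0.1 RPKM. A difference was called at an adjusted p of up to 0.05, and folds on this scale understate changes of low genes. Because libraries with the same number come from the same mouse, a fit with the mouse as a random block was also made. It is printed wherever it changes a call between neighbouring stages or between genotypes. In bulk RNA, fewer cells of a type and less RNA per cell cannot be told apart.

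**Figure D1:**
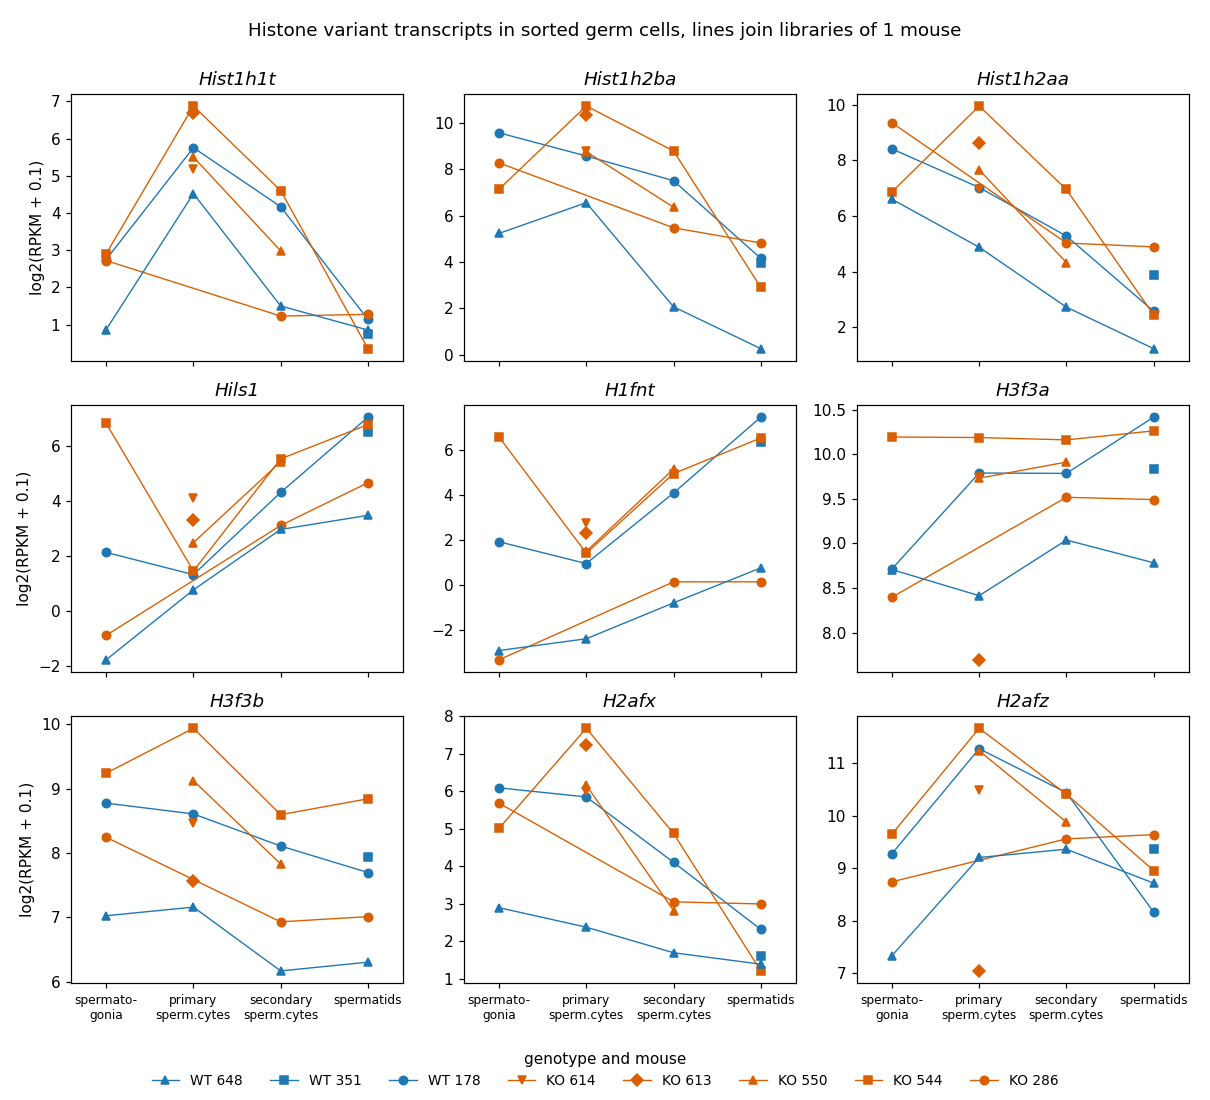
Level of each of the 9 transcripts, as log2(RPKM + 0.1), on the vertical axis against the 4 sorted stages on the horizontal axis, with 1 point per library, WT in blue, KO in orange and a line joining the libraries of 1 mouse. Hist1h1t is highest in primary spermatocytes in each of the 4 mice with that and another stage. Hils1 is higher in spermatids than in secondary spermatocytes in 4 of 4 mice. The low H3f3a and H2afz points of mouse 613 come from a library that appears to have been counted in another way.

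Hist1h1t, the meiotic linker histone, rose from spermatogonia to primary spermatocytes and fell at the next step, and in the fit without the mouse as a block it was the only one of the 9 transcripts called at either step. In spermatogonia it stood at 6.62 RPKM in WT mouse 178, 1.72 in WT mouse 648, 6.5 in KO mouse 286 and 7.38 in KO mouse 544. In primary spermatocytes it was 53.9 and 22.9 RPKM in WT mice 178 and 648, and 117, 45.3, 103 and 35.9 in KO mice 544, 550, 613 and 614. Every primary spermatocyte library was above every spermatogonia library, and the ranges of the 2 stages did not touch.

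Secondary spermatocytes held 17.9 RPKM of Hist1h1t in WT mouse 178 and 2.73 in WT mouse 648, and 2.24, 24.2 and 7.80 in KO mice 286, 544 and 550. Spermatids held 2.10, 1.57 and 1.71 RPKM in WT mice 178, 351 and 648, and 2.32 and 1.18 in KO mice 286 and 544. The spermatid libraries lay close together and the secondary spermatocytes overlapped the spermatogonia and reached above them. The lowest spermatid value rests on 50 reads and the highest primary spermatocyte value on 3485.

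The rise of Hist1h1t into primary spermatocytes was 3.29 on the log2 scale (SE 0.67, adjusted p = 0.00176, 9.77-fold), and it was 3.0 to 3.97 within each of the 3 mice with both stages. At this step 31.5% of all tested genes were called and 9.53% were called higher, against 1 of the 9 transcripts. None of the 9 was called lower, against 22.0% of all genes. It passed under 40 of the 41 alternative settings and missed with the KO libraries alone (3.25, adjusted p = 0.158). From primary to secondary spermatocytes Hist1h1t fell by 2.71 (SE 0.64, adjusted p = 0.0318), within 4 of 4 mice, at a step where 3.04% of genes were called, 2.85% higher and 0.194% lower. That call was lost when any 1 of 8 libraries was left out. Without the primary spermatocytes of WT mouse 178, WT mouse 648, KO mouse 544 or KO mouse 550 the difference was -2.40, -3.02, -2.58 or -2.80, and without the secondary spermatocytes of WT mouse 178, WT mouse 648, KO mouse 286 or KO mouse 550 it was -3.38, -2.04, -2.28 or -2.72, with adjusted p between 0.0528 and 0.186. It was also lost without all libraries of mouse 178, 550 or 648 (-3.07, -2.82 and -2.35). With the mouse as a block it stayed called (-2.69, adjusted p = 0.00372).

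Spermatids held less Hist1h1t than secondary spermatocytes by a log2 difference of -2.02 (SE 0.65), which missed the threshold without the block (adjusted p = 0.133). With the block it fell by 2.04 (adjusted p = 0.0244). No transcript of the 9 was called at this step without the block, where 0.541% of all genes were called, 0.535% lower. At an unadjusted p under 0.05 the count was 2 of the 9, where 17.6% of all genes passed. In order of mean level Hist1h1t ran primary spermatocytes, secondary spermatocytes, spermatogonia, spermatids, and of these neighbours the first pair alone differed beyond the test's threshold.

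Hist1h2ba and Hist1h2aa, the testis H2B and H2A, were the most abundant of the 6 single-transcript members in spermatogonia and primary spermatocytes. Hist1h2ba in spermatogonia was 759 and 37.4 RPKM in WT mice 178 and 648, and 309 and 141 in KO mice 286 and 544. In primary spermatocytes it was 380 and 93.9 RPKM in the WT mice 178 and 648, and 1692, 432, 1278 and 438 in KO mice 544, 550, 613 and 614. The 2 stages overlapped widely, and in WT mouse 178 the spermatogonia held more than the primary spermatocytes while in WT mouse 648 and KO mouse 544 they held less.

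Hist1h2ba in secondary spermatocytes was 181 and 4.08 RPKM in WT mice 178 and 648, and 44.3, 441 and 82.0 in KO mice 286, 544 and 550. In spermatids it was 17.7, 15.2 and 1.10 RPKM in WT mice 178, 351 and 648, and 28.1 and 7.37 in KO mice 286 and 544. Within every mouse measured at both stages the spermatid library was the lower one, by 0.65 to 5.88 on the log2 scale, although across mice the ranges overlapped through mouse 648.

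Hist1h2aa in spermatogonia was 342 and 97.3 RPKM in WT mice 178 and 648, and 656 and 116 in KO mice 286 and 544. In primary spermatocytes it was 130 and 29.3 RPKM in WT mice 178 and 648, and 996, 203, 393 and 126 in KO mice 544, 550, 613 and 614. In secondary spermatocytes it ran from 6.48 to 124 RPKM with a median of 32.5, and in spermatids from 2.24 to 29.5 with a median of 5.85. The 3 highest of the 5 spermatid values (29.5, 14.7 and 5.85) came from KO mouse 286, WT mouse 351 and WT mouse 178.

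Neither gene was called between spermatogonia and primary spermatocytes. The log2 difference was 1.05 for Hist1h2ba (SE 1.13, adjusted p = 0.538) and -0.68 for Hist1h2aa (SE 0.85, adjusted p = 0.597). From primary to secondary spermatocytes Hist1h2ba differed by -2.77 (SE 1.07, adjusted p = 0.143) and Hist1h2aa by -2.41 (SE 0.81, adjusted p = 0.0966), both missing the threshold. With the mouse as a block both fell, Hist1h2ba by 2.81 (7.02-fold, adjusted p = 0.0178) and Hist1h2aa by 2.59 (6.04-fold, adjusted p = 0.012), and both were lower in 4 of 4 mice. In that fit 19.9% of all genes were called at this step and 4.86% were called lower, and 5 of the 9 transcripts were called, 4 of them lower. From secondary spermatocytes to spermatids the differences were -2.51 (SE 1.10, adjusted p = 0.248) and -1.60 (SE 0.83, adjusted p = 0.326). With the block Hist1h2ba fell by 2.73 (adjusted p = 0.0351) and Hist1h2aa differed by -1.91 (adjusted p = 0.0709), at a step where that fit called 10.4% of genes (9.89% lower) and 2 of the 9. Between stages that are not neighbours, the fit without the block called both genes lower in spermatids than in primary spermatocytes. The log2 difference was -5.28 for Hist1h2ba (adjusted p = 0.00182) and -4.01 for Hist1h2aa (adjusted p = 0.00171). The share of all genes called between those stages was not counted.

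**Figure D2:**
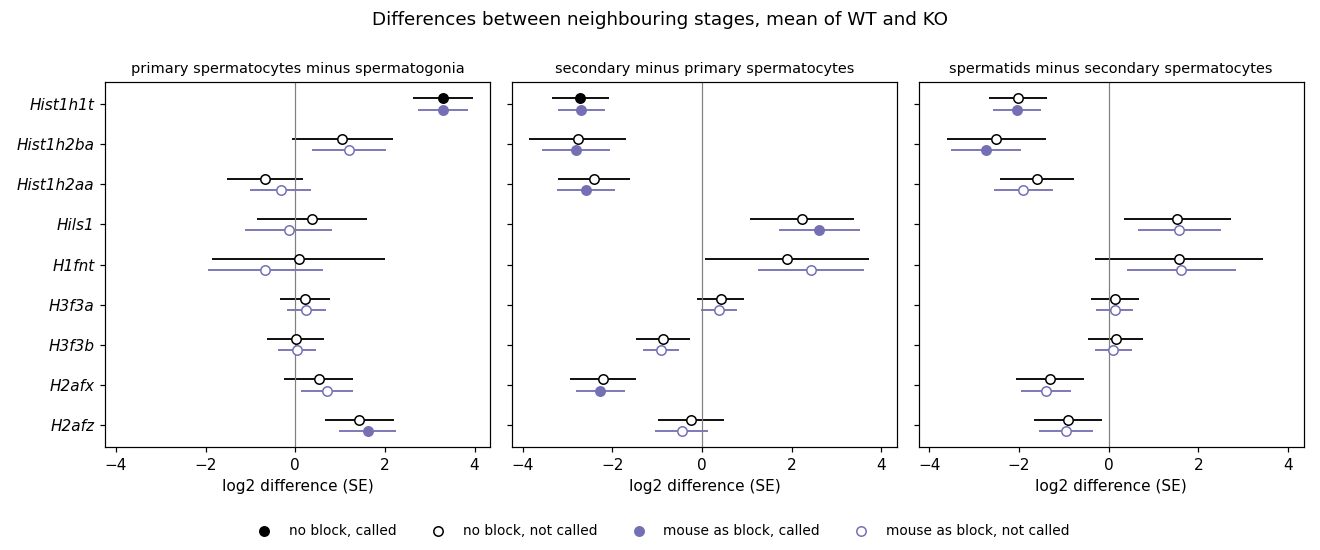
Log2 difference between neighbouring stages on the horizontal axis, for the 9 genes listed on the vertical axis, in 1 panel per stage step, with bars of 1 SE. Black marks the fit without the mouse and violet the fit with the mouse as a block, and filled points are called at an adjusted p of up to 0.05, 1, 1 and 0 of them in black and 2, 5 and 2 in violet from left to right.

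The 2 genes of the divergent pair were not read in a fixed proportion. Hist1h2ba over Hist1h2aa, each on its only transcript, was 1.70 to 3.49 in the 6 primary spermatocyte libraries, so Hist1h2ba was the higher one in all of them. In spermatogonia the ratio was 2.22 and 0.385 in WT mice 178 and 648, and 0.471 and 1.21 in KO mice 286 and 544. In secondary spermatocytes it ran from 0.63 to 4.68 with a median of 3.56, and in spermatids from 0.49 to 3.03 with a median of 1.03. The range crossed 1 at every stage but primary spermatocytes. Across the 20 sorted libraries Pearson's r between the 2 genes on the log2 scale was 0.92, a description over libraries that share mice and stages.

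H2afx, the variant phosphorylated at meiotic DNA breaks, kept close to this pair. It stood at 68.2 and 7.34 RPKM in the spermatogonia of WT mice 178 and 648, and at 51.4 and 32.2 in those of KO mice 286 and 544. Primary spermatocytes held 57.7 and 5.09 RPKM in WT mice 178 and 648, and 206, 71.7, 151 and 63.8 in KO mice 544, 550, 613 and 614. The 4 KO libraries were above both WT libraries at this stage, and WT mouse 648 was far below all others.

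H2afx was 3.13 to 29.3 RPKM in secondary spermatocytes (median 8.19) and 2.21 to 7.88 in spermatids (median 2.94). Between spermatogonia and primary spermatocytes it differed by 0.52 (SE 0.78, adjusted p = 0.668). From primary to secondary spermatocytes the log2 difference was -2.20 (SE 0.74, adjusted p = 0.0969) without the block, and with it H2afx fell by 2.27 (4.82-fold, adjusted p = 0.0102), in 4 of 4 mice. Spermatids differed from secondary spermatocytes by -1.31 (SE 0.76, adjusted p = 0.387), and by -1.40 with the block (adjusted p = 0.109). Without the block H2afx was called lower in spermatids than in primary spermatocytes (-3.51, adjusted p = 0.00226). H2afx, Hist1h2ba and Hist1h2aa correlated at r = 0.92 to 0.93 with each other, and with Hist1h1t at 0.70 to 0.84. Gpat2, an acyltransferase gene known from the piRNA pathway, was among the 2 genes outside the 9 most like H2afx (r = 0.97) and most like Hist1h2ba (r = 0.96). Hist1h4c, an H4 gene, was the most like Hist1h2aa (r = 0.97). The other 3 genes that filled these places were Tex19.2 for Hist1h2ba and Rab24 for Hist1h2aa (both r = 0.97), and Pim3 for H2afx (r = 0.96).

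Hils1 and H1fnt, the spermatid linker histones, ran the other way in mean level, which was highest in spermatids for both. Without the block Hils1 was called higher in spermatids than in primary spermatocytes (3.75, adjusted p = 0.0215) and spermatogonia (4.12, adjusted p = 0.0131). H1fnt was called between no pair of stages in that fit. Its differences were 3.46 (adjusted p = 0.171) from primary spermatocytes and 3.53 (adjusted p = 0.153) from spermatogonia. Hils1 in spermatids was 133, 90.4 and 11.1 RPKM in WT mice 178, 351 and 648, and 25.4 and 110 in KO mice 286 and 544. In secondary spermatocytes it was 19.9 and 7.76 RPKM in WT mice 178 and 648, and 8.58, 46.5 and 43.2 in KO mice 286, 544 and 550. The low spermatid values were those of mice 648 and 286, the mice with few protamine transcripts.

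In primary spermatocytes Hils1 was 2.41 and 1.61 RPKM in WT mice 178 and 648, and 2.66, 5.53, 9.98 and 17.2 in KO mice 544, 550, 613 and 614. In spermatogonia it was 4.31, 0.194 and 0.444 RPKM in WT mice 178 and 648 and KO mouse 286. The KO spermatogonia of mouse 544 held 114 RPKM, as much as that mouse's own spermatids, and this library also carried spermatid-level protamine transcripts. It was the highest Hils1 value of any sorted library but 1, the spermatids of WT mouse 178.

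H1fnt in spermatids was 176, 82.7 and 1.60 RPKM in WT mice 178, 351 and 648, and 1.0 and 92.4 in KO mice 286 and 544. In secondary spermatocytes it was 16.9 and 0.477 RPKM in WT mice 178 and 648, and 1.0, 30.8 and 35.5 in KO mice 286, 544 and 550. The split by mouse was wider than for Hils1, and mice 286 and 648 stayed below 2 RPKM at every stage. In primary spermatocytes it ran from 0.091 to 6.63 RPKM, and in spermatogonia it was listed at 0 for KO mouse 286, at 0.033 for WT mouse 648, at 3.69 for WT mouse 178 and at 95.3 for KO mouse 544.

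From primary to secondary spermatocytes the log2 difference was 2.22 for Hils1 (SE 1.16, adjusted p = 0.279) and 1.89 for H1fnt (SE 1.83, adjusted p = 0.598). With the mouse as a block Hils1 rose by 2.62 (SE 0.90, 6.14-fold, adjusted p = 0.0478) where that fit called 15.0% of genes higher, and H1fnt differed by 2.43 (SE 1.19, adjusted p = 0.154). Within mice both were higher in 4 of 4, by 2.20 to 4.08 for Hils1 and by 1.60 to 3.65 for H1fnt. Leaving out mice 286 and 648, a choice made after the values were seen, both rose, Hils1 by 2.81 (adjusted p = 0.0318) and H1fnt by 3.10 (adjusted p = 0.0093). That fit called 1159 genes at this step, against 580 with all libraries. From secondary spermatocytes to spermatids Hils1 differed by 1.53 (SE 1.19, adjusted p = 0.523) and H1fnt by 1.57 (SE 1.87, adjusted p = 0.695), both higher in 4 of 4 mice. These mice include KO mouse 286, where the H1fnt difference was 0.002.

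**Figure D3:**
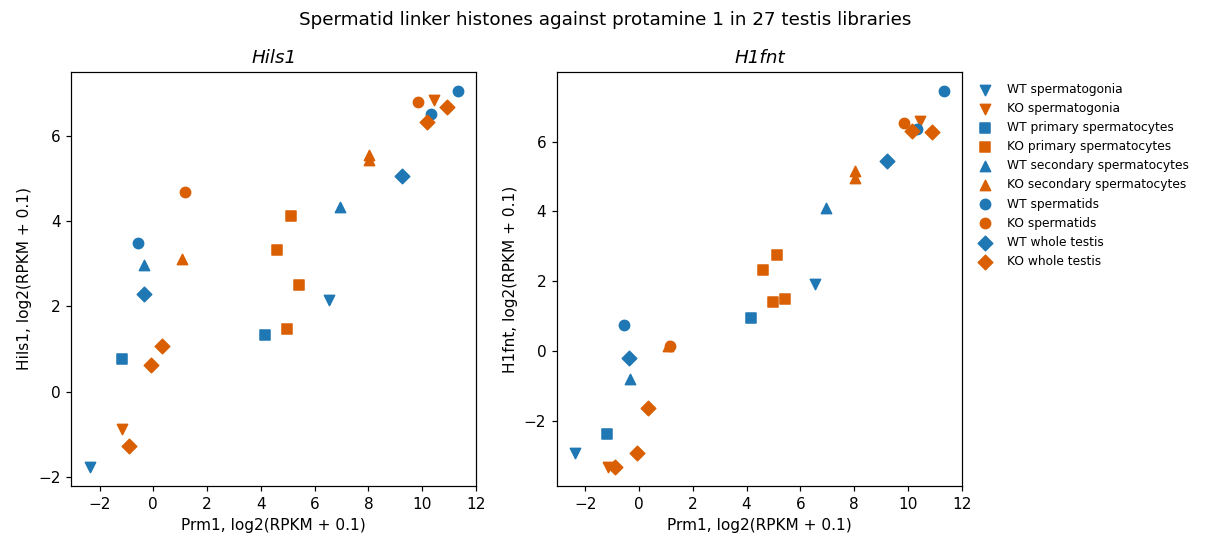
Level of Hils1 (left) and H1fnt (right) against Prm1, all as log2(RPKM + 0.1), with 1 point per testis library, colours for genotype and shapes for stage or whole testis. H1fnt and Prm1 are low together in the libraries of mice 648 and 286, while the spermatids of mice 648 and 286, with Prm1 at 0.579 and 2.14 RPKM, still hold 11.1 and 25.4 RPKM of Hils1.

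The 2 linker genes differed in how they stood beside the protamines, the small basic proteins that pack sperm DNA. In the spermatids of WT mouse 648 and KO mouse 286, Prm1 was 0.579 and 2.14 RPKM, against 930 to 2579 in the other 3 spermatid libraries. Hils1 over H1fnt, each on its only transcript, was 6.97 and 25.3 in those 2 libraries and 0.758, 1.09 and 1.19 in the spermatids of WT mouse 178, WT mouse 351 and KO mouse 544. Whole testes showed the same split, with ratios of 43.8, 9.04 and 6.18 in mice 269, 286 and 648 and of 0.766, 1.02 and 1.31 in mice 178, 214 and 273. The high ratios divide by few reads, as H1fnt had 2, 12 and 54 in whole testes 269, 286 and 648. In whole testis 308 H1fnt was listed at 0 and Hils1 was 0.311 RPKM. The genes most like Hils1 were Fam209 and Llcfc1, and those most like H1fnt were Prss55 and Sppl2c, all at r = 0.99 over 20 libraries. For Hist1h1t the most alike were 4930579G24Rik and Chst1, both at r = 0.97.

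H3f3a and H3f3b, the 2 genes for H3.3, and H2afz, the H2A.Z gene, were present at every stage. These 3 genes have 7, 4 and 7 transcripts in the deposited rows. In 27 libraries a read appears to have been counted for every transcript it overlapped, which was not tested. The sums of these 3 genes are therefore not compared with those of the single-transcript genes. In the library of mouse 613 reads appear to have been divided between transcripts, and its sums for these genes cannot be compared with the others. H2afz there was 132 RPKM against 1445 to 3245 in the other 3 KO primary spermatocyte libraries.

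Summed H2afz was 619 and 161 RPKM in the spermatogonia of WT mice 178 and 648, and 427 and 802 in those of KO mice 286 and 544. It was 2476 and 589 RPKM in the primary spermatocytes of WT mice 178 and 648, and 3245, 2410 and 1445 in those of KO mice 544, 550 and 614. In each of the 3 mice with both stages the primary spermatocytes were higher, by 1.87 to 2.02 on the log2 scale, the narrowest spread among mice of any of the 9 transcripts at this step. With mouse 613 in the fit the difference was 1.43 (SE 0.77, adjusted p = 0.177) and was not called, and without it H2afz rose by 1.94 (SE 0.52, adjusted p = 0.00904). It was also called with the mouse as a block (1.62, adjusted p = 0.0496, where 41.0% of genes were called) and on the RefSeq transcript alone (1.58, adjusted p = 0.0295). Later steps were not called, at -0.25 (SE 0.73, adjusted p = 0.882) into secondary spermatocytes and -0.90 (SE 0.75, adjusted p = 0.557) into spermatids. Without mouse 613 the difference into secondary spermatocytes was -0.76 (SE 0.49, adjusted p = 0.342), in a fit that called 1711 genes at that step against 580 with it.

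Summed H3f3a ranged over 337 to 1172 RPKM in spermatogonia and 207 to 1166 in primary spermatocytes. The 207 is from mouse 613, and the lowest of the other libraries of that stage was 341, in WT mouse 648. In secondary spermatocytes the range was 525 to 1146 and in spermatids 440 to 1367. Summed H3f3b ranged over 130 to 605, 143 to 981, 71.7 to 387 and 78.8 to 459 RPKM at the same stages. At the step from primary to secondary spermatocytes H3f3a differed by 0.42 (SE 0.53, adjusted p = 0.705) and H3f3b by -0.87 (SE 0.60, adjusted p = 0.435), and within mice H3f3b was lower in 4 of 4 while H3f3a was lower in 2 of 4. Without mouse 613 these differences were 0.14 and -1.07. Neither was called at any step, with or without the block. With a covariate for the sets of libraries that lack values for the same transcripts, H3f3b was called lower in secondary than in primary spermatocytes (-1.29, adjusted p = 0.0258). In order of mean level, with mouse 613 included, H3f3a ran spermatids, secondary spermatocytes, primary spermatocytes, spermatogonia. H3f3b ran primary spermatocytes, spermatogonia, spermatids, secondary spermatocytes. No neighbours in either order differed beyond their spread. The genes most like H3f3a were Sssca1 and Ndufb8 (r = 0.93), those most like H3f3b were Rad51d (r = 0.96) and Vps51 (r = 0.94), and those most like H2afz were Saal1 and Naxd (r = 0.92).

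Per length, on the RefSeq transcript of each gene, H3f3a over H3f3b was 0.113 to 0.767 in primary spermatocytes (median 0.294). The 0.113 is from mouse 613, and the next lowest was 0.16, in KO mouse 544. The ratio was 0.467 to 3.47 in secondary spermatocytes (median 0.777) and 0.559 to 3.36 in spermatids (median 1.57). On these transcripts H3f3b was the higher of the pair in all 6 primary spermatocyte libraries and in the 4 spermatogonia libraries (0.203 to 0.977), and H3f3a in 3 of 5 spermatid libraries. The 3 highest ratios, 3.47, 3.36 and 2.05, were those of secondary spermatocytes and spermatids of mouse 648 and spermatids of mouse 286. The RefSeq H3f3a transcript stood at 46.5 RPKM in the primary spermatocytes of KO mouse 544, beside a sum of 1166. A sum may count the same read for several transcripts, so it is not the gene's total signal. The direction of the ratio turned with the transcripts used. The sums took in 7 H3f3a and 4 H3f3b transcripts, so which gene was higher on them does not compare total levels. On summed RPKM H3f3a was the higher in 6 of 6 primary spermatocyte, 5 of 5 secondary spermatocyte, 5 of 5 spermatid and 3 of 4 spermatogonia libraries. The primary spermatocyte libraries include mouse 613, at 207 RPKM of H3f3a and 188 of H3f3b. No test was run on the ratio.

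**Figure D4:**
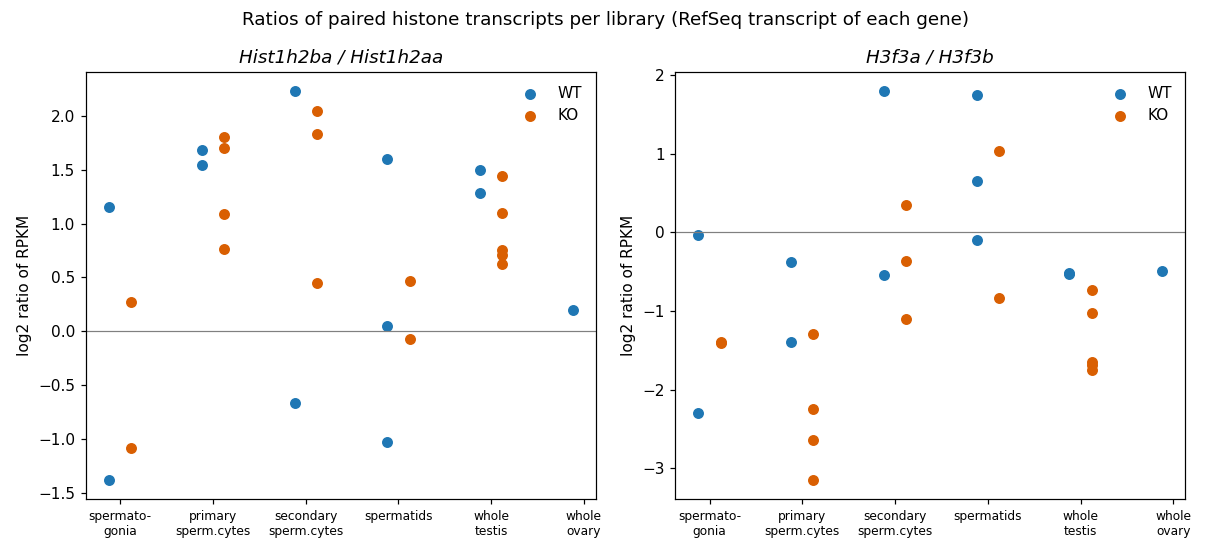
Log2 ratio of RPKM per library for Hist1h2ba over Hist1h2aa (left) and H3f3a over H3f3b (right), by stage or organ on the horizontal axis, with WT in blue, KO in orange and a line at equal levels. Ratios of the left panel lie above the line in all 6 primary spermatocyte libraries. Those of the right panel, on 1 RefSeq transcript per gene, lie below it there and above it in 3 of 5 spermatid libraries. Summed RPKM, in which a read may be counted for several transcripts, placed H3f3a above H3f3b in all 6 primary spermatocyte libraries.

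Other histone genes gave the setting of these patterns. Over all tested genes 31.5%, 3.04% and 0.541% were called at the 3 steps, and 41.0%, 19.9% and 10.4% with the block. The counts of every list below stand beside these shares. Of 63 replication-dependent histone genes in the deposited rows, 61 were tested. From spermatogonia to primary spermatocytes 23 fell and 3 rose, with a median log2 difference of -1.71 against -0.27 over all genes. With the mouse as a block 31 fell and 3 rose. The 3 that fell most were Hist1h2ag (-4.81, adjusted p = 0.00139), Hist1h2ak (-4.13, adjusted p = 0.00138) and Hist1h2bl (-4.09, adjusted p = 0.00342), and the 3 that rose were Hist2h2ab (3.10, adjusted p = 0.00154), Hist2h2be (2.86, adjusted p = 0.00269) and Hist2h2ac (1.56, adjusted p = 0.0329). Poly(A) selection under-reads these genes, and several are near-identical copies between which reads may be split. At the next step 2 fell, Hist3h2a (-2.09) and Hist2h2ac (-2.03), and with the block 8 fell and 1 rose. None was called into spermatids, and 9 fell with the block.

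Of 16 other histone genes listed as replication-independent in the table, 14 were tested, and 3 of them, Hist3h2a, Hist3h2ba and Hist3h2bb-ps, are also in the preceding list. The first step called 1 higher and 5 lower, against 2 and 6 with the block, and the median difference was -0.63. H2afy3, named as a macroH2A relative, rose by 2.56 (adjusted p = 0.0181). Cenpa, the centromeric H3 variant, fell by 3.39 (adjusted p = 0.000712), Hist3h2ba by 3.23 (adjusted p = 0.000636) and H2afv, the second H2A.Z gene, by 1.72 (adjusted p = 0.00822). H2afv was 48.1 to 168 RPKM in spermatogonia and 9.04 to 71.9 in primary spermatocytes, and H2afz, its close relative, was called higher under the settings above. The second step called Hist3h2a lower, and 1 higher and 4 lower with the block. The third called none without the block and 2 lower with it.

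Histone chaperones and exchange factors (20 genes, all tested) had 2 higher and 3 lower at the first step and 4 and 3 with the block. Over all genes 31.5% were called at this step, and 41.0% with the block. The median difference was 0.18 over the 20 and -0.27 over all genes. Npm2 (1.40, adjusted p = 0.0159) and Chaf1a, a subunit of the replication-coupled H3 chaperone (1.18, adjusted p = 0.0274), rose. Atrx, which acts in H3.3 deposition (-4.16, adjusted p = 0.00495), Anp32e, the chaperone that removes H2A.Z (-3.90, adjusted p = 0.00165), and Cabin1, part of the HIRA complex (-1.34, adjusted p = 0.0113), fell. None was called at the later steps without the block, and 1 and 3 fell with it. Of 11 tested genes for H2A.X phosphorylation and its readers, Mdc1 rose (1.27, adjusted p = 0.0457) and Atm (-2.75, adjusted p = 0.0013) and Brca1 (-2.65, adjusted p = 0.000417) fell at the first step, and 2 rose and 2 fell with the block, with a median of -0.29. None of the 11 was called later without the block, and with it 1 rose and 4 fell into secondary spermatocytes.

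Of 12 factors named for histone removal in spermatids, 3 rose into primary spermatocytes, Phf7, a histone reader with a ubiquitin ligase domain (1.89, adjusted p = 0.00932), and the acetyltransferases Kat5 (1.82, adjusted p = 0.00215) and Kat8 (1.35, adjusted p = 0.00928). With the block 5 rose and 2 fell, where 41.0% of all genes were called with it and 31.5% without. The median of the 12 was 0.88. None was called into secondary spermatocytes, with 1 higher with the block, and Trrap, a scaffold of acetyltransferase complexes, fell into spermatids by 2.08 (adjusted p = 0.0443), with 1 higher and 2 lower with the block. Of 9 tested genes for histone mRNA processing, Casp8ap2 alone was called at the first step and fell (-1.89, adjusted p = 0.0322), against 1 higher and 2 lower with the block and a median of -0.40, and at the later steps none was called without the block and 1 fell with it. The 5 transition protein and protamine genes were not called at any step without the block, and 1 rose into secondary spermatocytes with it. Prm2 ran from 2.01 to 2209 RPKM over 5 spermatid libraries, Tnp1 from 5.68 to 2378 and Tnp2 from 2.39 to 1681.

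Markers of other cells moved with the stage steps. All 6 spermatogonial markers and all 6 peritubular and stromal markers fell from spermatogonia to primary spermatocytes, as did 5 of 6 macrophage markers, 3 of 5 Sertoli and 1 of 6 Leydig markers tested, and 3 of 6 primary spermatocyte markers rose. From primary to secondary spermatocytes 3 of 6 macrophage markers rose and, with the block, 5 stromal, 5 macrophage, 4 Leydig, 3 Sertoli and 5 spermatid markers did. Into spermatids 2 macrophage markers fell, and with the block 4 macrophage, 4 Leydig, 3 Sertoli, 3 stromal and 1 spermatogonial marker did. Of 6 markers of ovarian cells 4 were tested, with 1 higher and 1 lower at the first step and none called later. The part of these cells in the differences above was not tested.

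**Figure D5:**
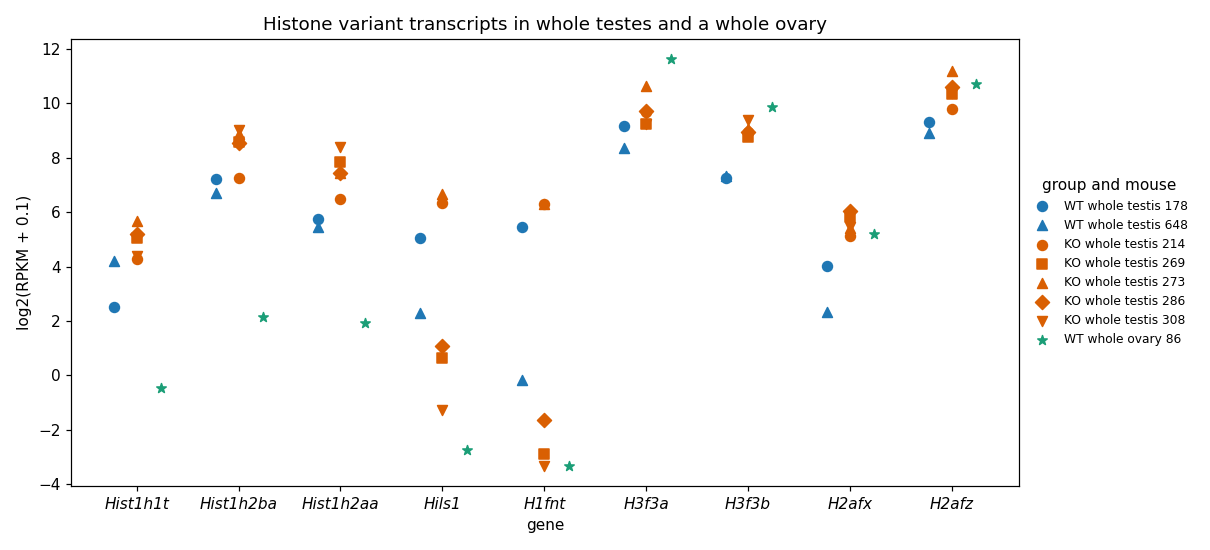
Level of the 9 transcripts, as log2(RPKM + 0.1) on the vertical axis, in 2 WT whole testes (blue), 5 KO whole testes (orange) and 1 WT ovary (green), with 1 point per library and a shape per mouse. Every KO testis is above both WT testes for 7 of the 9 genes, while Hils1 and H1fnt split by mouse within both genotypes, and the ovary is lowest for Hist1h1t, Hist1h2ba, Hist1h2aa and Hils1.

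For the question of genotype, no transcript of the 9 was called between KO and WT. limma called 0 of all genes (0.0%) in each sorted stage and in whole testis, and with the mouse as a block 3 genes (0.0157%) in primary spermatocytes, none of them a member. None of the genes of the lists above was called between genotypes either, with or without the block. At an unadjusted p under 0.05 the count among the 9 was 2 in primary spermatocytes, 6 in whole testis and 0 in the other 3 comparisons. Over all genes 1670 of 19049 passed in primary spermatocytes (8.77%) and 2493 of 22776 in whole testis (10.9%). Of those, 1472 in primary spermatocytes and 2402 in whole testis were higher in KO. In spermatogonia, secondary spermatocytes and spermatids 1018, 549 and 139 genes passed (5.34%, 2.88% and 0.73%). In primary spermatocytes the KO libraries were above both WT libraries for 4 of the 9, namely Hist1h2ba, Hils1, H1fnt and H2afx, where 15.3% of all genes were so placed. In spermatogonia, secondary spermatocytes and spermatids none of the 9 had every KO library above every WT library, where 12.7%, 15.6% and 7.16% of all genes did. None had every KO library below every WT library either, and the share of all genes so placed is not given here. A test of whether the genotype difference changed with the stage called 0 of 19049 genes, with 486 at an unadjusted p under 0.05, 0 of them members.

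In whole testis every KO library was above both WT libraries for 7 of the 9 transcripts, all but Hils1 and H1fnt, where 15.9% of 22776 genes were so placed. Among the donors of whole testes, a listed age of its own, 40 days, was found for WT mouse 178 alone. KO mouse 286 and WT mouse 648 come under the methods' age for sorted males. The ages of the other 4 of the 5 KO mice are not given in the sources used here, and the part of age was not tested. H2afx was 16.0 and 4.97 RPKM in WT testes 178 and 648, and 34.5, 56.9, 42.3, 66.1 and 43.7 in KO testes 214, 269, 273, 286 and 308. The KO testes were 2.39 higher on the log2 scale (SE 0.52), which missed the threshold over all genes (adjusted p = 0.312). Hist1h2ba was 151 and 105 RPKM in the same WT testes and 151, 380, 471, 371 and 522 in the KO testes, and the lowest KO testis, mouse 214, exceeded WT mouse 178 by under 1 RPKM. Its difference was 1.48 (SE 0.52, adjusted p = 0.353).

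Hist1h1t was 5.54 and 18.5 RPKM in WT testes 178 and 648, and 19.5, 33.2, 51.5, 36.5 and 21 in KO testes 214, 269, 273, 286 and 308, a difference of 1.57. Hist1h2aa differed by 1.93, H3f3b by 1.72, H2afz by 1.35 and H3f3a by 0.94, and adjusted p over the 9 was 0.312 to 0.924. The median of all genes was itself 0.39 higher in KO, and after quantile scaling, which brought it to 0.05, the same 7 differences were 0.41 to 1.65 with an adjusted p of 0.999. The WT pair was itself wide apart, with mouse 648 below mouse 178 for H2afx and above it for Hist1h1t. Without WT testis 178 the H2afx difference was 3.23 and that of Hist1h1t 0.71, and without WT testis 648 they were 1.56 and 2.43.

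Hils1 and H1fnt did not separate the genotypes in whole testis. Hils1 was 33.4 and 4.82 RPKM in WT testes 178 and 648, and 80.5, 1.45, 102, 2.02 and 0.311 in KO testes 214, 269, 273, 286 and 308. H1fnt was 43.6 and 0.780 RPKM in the WT testes, and 79.1, 0.033, 77.8, 0.223 and 0 in the KO testes in the same order. Testes 178, 214 and 273, with Prm1 at 603 to 1922 RPKM, held both linker transcripts, and the other 4, with Prm1 at 0.439 to 1.16 RPKM, held little of either. The genotype differences were -1.0 for Hils1 (SE 2.10, adjusted p = 0.924) and -1.69 for H1fnt (SE 2.97, adjusted p = 0.905), and without WT testis 178 they turned to 0.39 and 1.13.

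The WT ovary, a single library with no replicate, served as a tissue without spermatogenesis. Hist1h1t stood at 0.62 RPKM there (30 reads), Hist1h2ba at 4.29 (87 reads), Hist1h2aa at 3.74 (77 reads) and Hils1 at 0.048 (2 reads), and H1fnt was listed at 0. All 5 were below the lowest of the whole testes, other than H1fnt, which was also listed at 0 in KO testis 308. H3f3a, at 3165 RPKM, and H3f3b, at 944, were above all 7 whole testes. H2afx, at 36.5 RPKM, and H2afz, at 1665, lay within the range of the testes, 4.97 to 66.1 and 481 to 2352.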

How the data were processed

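The 28 libraries were described by the study as poly(A)-selected, read as 101-base pairs and aligned with TopHat2 to transcripts of Ensembl release 72. The deposited values are RPKM per transcript made by the authors, with no counts. Whether counting used strand is not given in the sources used here. Low values stepped in whole reads in 27 libraries (93.1 to 94.6% of values within 0.06 of a whole read), and the precision of low values is limited by those reads. No column belonged to another series (0 columns).

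RPKM was summed per gene with GENCODE M21 names (90432 of 94480 transcripts matched, 95.7%). Differences were fitted with limma 3.58.1 in R 4.3.3 (lmFit, eBayes with trend) on log2(RPKM + 0.1) over genes with a mean of at least 0.1 RPKM, with Benjamini-Hochberg adjustment over all genes and calls at 0.05. The 20 sorted libraries shared 1 fit of 8 groups, the 7 whole testes had another, and the ovary was described only. Tables and figures were made with Python 3.11.15, numpy 2.4.6, pandas 2.3.3 and matplotlib 3.10.9, and the fit was tested on simulated data. Alternatives changed the pseudocount (0.01, 1), the filter (none, 1 RPKM), the scaling (quantile), the transcript, the libraries, the library set and the mouse block.

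Libraries with the same number came from the same animal, so numbers pair the samples. Deviations from group means correlated at a median of 0.48 over 22 same-mouse pairs (-0.15 to 0.70) and of -0.05 over 151 pairs of different mice, and the block used a correlation of 0.399. Libraries of 1 mouse are not independent, and without the block the p-values treat them as if they were.

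The 9 genes and all gene lists were chosen with earlier results of these data known. Genes named beyond the 9 are the up to 3 largest called changes per list, step and direction, the 2 genes most correlated with each of the 9, and Prm1, Prm2, Tnp1 and Tnp2. Libraries fell into 4 sets by which transcripts carry no value, and mouse 613 alone formed 1 of them. Of the genes sought, H2al1a, H2bl1 and Symplk had no row under those names.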

Additional observations from a re-analysis of the deposited data

Results flagged for a closer look

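Hist1h2ba in KO whole testis had 1 library far from the others. Mouse 214 stood at 151 RPKM. On the log2 scale, the gap to the next KO testis took up 0.725 of the range of the 5 KO testes. Of 18 groups of 4 or more libraries examined in this way 1 was marked, and chance marks about 1 in 20.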

How the results depend on the processing

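The count of the 9 transcripts called between spermatogonia and primary spermatocytes was 1, and it was 2 with the mouse as a replicate block, with the library set as covariate, on RefSeq transcripts, without mice 286 and 648, and without the library of mouse 613 and the spermatogonia of mouse 544, and 0 with KO libraries alone. Between primary and secondary spermatocytes it was 1, with 5 under the replicate block (Hils1 among them, not H3f3b) and 5 under the library set (H3f3b among them, not Hils1). It was 2 without mice 286 and 648, and 0 with no filter, WT libraries alone or KO libraries alone. Into spermatids it was 0, with 2 under the replicate block and the library set. Between genotypes in spermatogonia it was 0, and H1fnt was called without mice 286 and 648. That fit set the KO library of mouse 544 alone against the WT library of mouse 178 alone, with H1fnt at 95.3 and 3.69 RPKM. The spermatogonia of mouse 544 also held 10946 RPKM of transition protein and protamine transcripts. Leaving out 1 library or mouse gave 1 to 2, 0 to 1, 0 to 0 and 0 to 1 calls in these comparisons. The second call at the first step without mouse 613 was H2afz. The call in spermatogonia came without the KO library of mouse 286, which left mouse 544 alone in the KO group. Between neighbouring stages and between genotypes, the paired fit changed no call other than those given with it.

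From spermatogonia to primary spermatocytes, Hist1h2aa turned to 0.19 with KO libraries alone and 0.024 without mice 286 and 648, and H2afx to -0.38 with WT libraries alone. From secondary spermatocytes to spermatids H1fnt turned to -0.077 with KO libraries alone. Leaving out 1 library or mouse, the difference ran from -0.033 to 2.14 for Hist1h2ba and from -0.35 to 1.39 for H2afx at the first step, from -0.77 to 0.27 for H2afz at the second, and from -0.028 to 3.17 for H1fnt at the third. In whole testis it ran from -2.38 to 0.39 for Hils1 and from -4.50 to 1.13 for H1fnt. Where an omission left 1 library in a group, that library was assumed to vary like the other groups. The causes were not tested. Of all genes called at the first step 30.2% were higher, and 51.9% under quantile scaling, and at the second 93.6% and 62.4%, while none of the differences of the 9 transcripts recomputed under that scaling changed sign. The median of all genes stood at -0.27, 0.18 and -0.33 at the 3 steps, and at 0.08, -0.09 and -0.08 under quantile scaling. The alternatives with mice 286 and 648 or with mouse 613 and the mouse 544 spermatogonia left out, and the RefSeq transcripts, were chosen after seeing the data.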
